A study of Homo sapiens with 28 samples.

Results

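The response to transforming growth factor beta 1 (TGF-β1) was compared between 2 human lung adenocarcinoma lines, as the change in H1944 minus the change in A549, gene by gene. The members are 17 of the 28 libraries of the series: all that were made from TGF-β1-treated or untreated cells of these lines. Both lines carried MGT#1-mVenus, a synthetic promoter reporter that drives the fluorescent protein mVenus, and mVenus RNA was present in every library. In A549 there were 2 libraries of the mVenus-low gate and 3 of the mVenus-high gate after 11 days of TGF-β1 at 5 ng/ml, and 3 libraries of naive cells. In H1944 each of the same 3 groups had 3 libraries. No A549 low-gate library B of TGF-β1-treated cells is among the 28 libraries. Treated cells were sorted by flow cytometry and naive cells were sequenced unsorted, so the effect of TGF-β1 and that of sorting cannot be told apart in either line. Each line is a single cultured line, and a difference between them is a difference between these 2 lines. The labels give replicate letters but do not say that letters were separate cultures, so p-values measure the spread between libraries, which may be technical. Nor do they say whether the low and high gates of a letter came from the same culture. For treated cells, n below counts libraries of both gates.

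TGF-β1 binds a pair of serine/threonine kinase receptors, TGFBR2 and TGFBR1, which phosphorylate SMAD2 and SMAD3. These join SMAD4, enter the nucleus and act with other factors on target genes, among them the feedback inhibitor SMAD7. In epithelial cells the pathway is known for epithelial-mesenchymal transition, in which junction genes such as CDH1 (E-cadherin) are lost and genes of matrix, motility and contraction, such as CDH2 (N-cadherin), VIM and FN1, are gained. Which targets respond is known to depend on the cell type and on the factors it already expresses.

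Total counts ran from 3004125 to 9550143 per library in A549 and from 1660148 to 13280592 in H1944. The common biological coefficient of variation, the spread between libraries of a group beyond counting error, was 0.397 in A549 and 0.0791 in H1944 when each was fitted by itself, and 0.263 in the joint fit used here. The joint fit therefore gives A549 a smaller error, and H1944 a larger one, than each line's own libraries do. Libraries were made from low amounts of total RNA with a stranded kit. The transcript of mVenus, whose fluorescence set the gates and so part of its level in the treated libraries, was higher in treated than naive cells by 1.92 ± 0.15 in H1944 and 1.72 ± 0.15 in A549 on the log2 scale, and the difference of 0.20 ± 0.21 did not pass (adjusted p = 0.597). Summed counts of 381 olfactory receptor genes, taken as background reads, were highest in A549 high-gate library B at 313 CPM (counts scaled to a common library total of 1e+06) and A549 naive library A at 202 CPM, and lay between 3.62 and 63.2 CPM in H1944. KRT8 and KRT18, keratins of simple epithelia, were at 6284 ± 338 and 3807 ± 253 CPM in naive A549 (SD, n = 3) and at 3015 ± 219 and 1716 ± 121 CPM in naive H1944 (SD, n = 3), and EPCAM, CDH1, KRT19 and KRT7 were also present in naive cells of both. The 12 endothelial markers summed to at most 79.4 CPM and the 17 immune markers to at most 92.2 CPM, both in an A549 high-gate library. CDH5 and PLVAP were at 0 in all libraries of the H1944 high gate and of naive H1944, but other endothelial markers were present there. PECAM1 had the highest group mean of the 12 in naive H1944 and was lower in both treated H1944 gates. ESAM went the other way, with a higher mean in both treated H1944 gates than in naive H1944. The 15 fibroblast markers summed to 10.8 to 15.6 CPM in naive H1944 and 3470 to 4560 CPM in treated H1944, and in A549 to 3.33 to 54.8 CPM when naive and at least 256 CPM when treated. Most of the treated sum was COL1A1, itself a TGF-β1 target, and the part of any other cell type in the results was not tested.

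Of 17314 genes tested, 3625 (20.9%) changed to a different degree in the lines at an adjusted p of 0.05. The response was higher in H1944 for 1773 genes (10.2%) and lower for 1852 (10.7%). With edgeR's RLE size factors (from median ratios) in place of TMM the split was 2139 higher and 1557 lower, and the median difference over all genes moved from -0.03 to 0.07. Of the genes called, 1169 and 1032 differed at least 2-fold. H1944 itself had 7552 genes that changed with TGF-β1 (43.6%), 3461 up (20.0%) and 4091 down (23.6%), and A549 had 5410 (31.2%), 2723 up (15.7%) and 2687 down (15.5%). The A549 count of 2723 was 1429 without low-gate library A and 1604 without low-gate library C. Because samples are bulk RNA, more cells with a transcript and more transcript per cell cannot be told apart here. The count of 3625 was 2142 without A549 low-gate library A and 2373 without A549 low-gate library C, and the count lower in H1944 was between 801 and 1165 without any of 8 libraries: A549 low A, low C, high C and naive C, and H1944 low A, high A, high B and naive C.

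In both lines 1799 genes rose (10.4%) and 1757 fell (10.1%), which is 47.1% of the H1944 calls and 65.7% of the A549 calls. The median log2 fold change of the shared risers was 1.54 in H1944 and 1.14 in A549, and of the shared fallers -1.09 and -0.87. Of the 3556 shared genes, 1103 also differed in size (6.37% of all genes tested): 840 moved further in H1944 and 263 further in A549. At the other end, 1749 had a 95% interval of the difference inside 1 log2 unit on either side of 0, so a difference of 2-fold or more lay outside their intervals. Opposite changes were called for 155 genes (0.895%) that rose in H1944 and fell in A549 and 159 (0.918%) the other way round. Changes found in 1 line, with the difference itself past the test, numbered 650 up (3.75%) and 909 down (5.25%) for H1944 and 304 up (1.76%) and 291 down (1.68%) for A549. For 1158 of the 1559 H1944-only genes and 502 of the 595 A549-only genes, the 95% interval of the other line's effect lay within 2-fold either way. A further 2123 genes (12.3%) passed in H1944 and 945 (5.46%) in A549 without a called difference, and these are not evidence of a line-specific response. No change passed in either line, nor the difference, for 8168 genes (47.2%).

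Several of these counts moved by over 1.5 times without a single library. The 159 opposite genes that rose in A549 were 48 to 100 without any of 11 libraries, the fewest without A549 low A, and the 155 were 245 without A549 high B. The 909 H1944-only fallers were 424 to 589 without any of 6 libraries, the fewest without H1944 naive C, and the 650 risers were 986 without A549 high B. The 304 A549-only risers were 105 to 172 without any of 10 libraries, the fewest without A549 low A, and the 291 fallers were 456 without A549 high B and 186 without H1944 naive A. The shared risers were 1084 without A549 low A and 1191 without A549 low C, and the 1749 were 764 to 1156 without any of 6 libraries, the fewest without A549 low A. Of the genes with a bounded effect in the other line, the 1158 were 645 and 733 without A549 low A or low C, and the 502 were 239 to 328 without any of 5 libraries, the fewest without A549 low A. Over the 14031 genes expressed in both lines at 2 CPM or more, the 2 effects had a Pearson correlation of 0.652 and a Spearman correlation of 0.602, as a description across genes of 2 contrasts with no shared library.

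**Figure D1:**
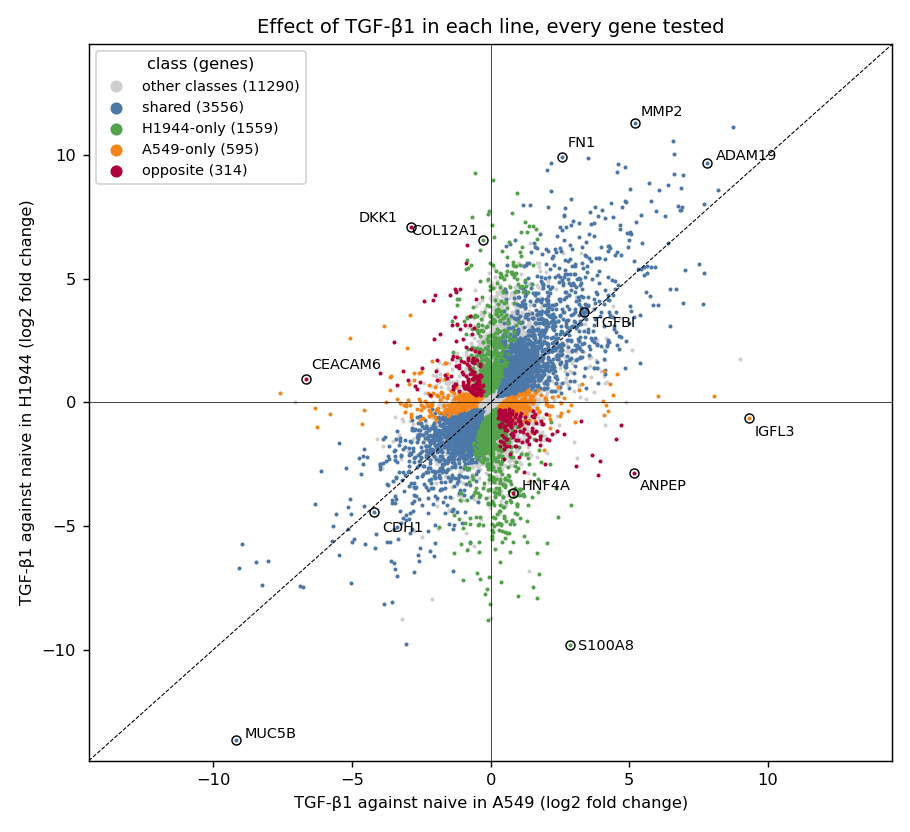
Each point is 1 of the 17314 genes tested, placed by its log2 fold change of TGF-β1-treated (both gates, weighted equally) against naive cells in A549 (horizontal) and in H1944 (vertical), with colour for the class and the dashed line where both effects are equal. FN1 and MMP2 lie above the dashed line, TGFBI lies near it, and DKK1 and ANPEP lie in opposite quadrants; for genes with no counts in a group the fitted value depends on edgeR's prior count.

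With each line fitted by itself, which uses that line's own spread, the classes shrank where A549 had to pass: 1002 of the 1799 shared risers, 864 of the 1757 shared fallers, 61 of the 155 and 53 of the 159 opposite genes, and 101 of the 304 and 158 of the 291 A549-only genes remained in their class. Of the H1944-only genes, 607 of 650 risers and 870 of 909 fallers were kept. This does not show a firmer class, because A549 had to fail there, and its wider spread made failing easier. The call of the difference was taken from the joint fit in all classes. With each line fitted alone the H1944-only classes grew to 973 risers and 1193 fallers. Where a gene named here lost its A549 change in those fits, its adjusted p is given. FOXC1, GADD45B and KIF20A, called in A549 only, also passed in H1944 with that line alone (adjusted p = 0.0113, 0.0008 and 0.0408).

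The genes with the largest differences started from different levels. All 10 protein-coding genes with the highest difference, at 5 CPM or more in a group of each line, were lower in naive H1944 than in naive A549 (24.5% of all genes were, and 46.8% differed in either direction). After TGF-β1, 7 of the 10 were higher in H1944 (22.8% of all genes were), 2 were lower (29.2% were, and 51.9% differed in either direction), and LFNG did not pass the test. Among the 10 lowest, 9 were higher in naive H1944 (22.3% of all genes were), and HPGD was the exception. The naive libraries enter both the difference and the naive comparison, so these counts are a description.

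Among TGF-β family ligands, 6 of 10 tested rose in H1944 and 4 in A549, and the response was higher in H1944 for 6 and lower for 1, the latter for none without any of 11 single libraries. Over all genes tested, 10.2% had a higher and 10.7% a lower response in H1944. With TGF-β1, 20.0% of all genes rose and 23.6% fell in H1944, and 15.7% rose and 15.5% fell in A549. These are the shares to set beside each list count. TGFB2, a second TGF-β isoform (chr1:218346235-218444619, plus strand, GRCh38), was at 66.2, 57.8 and 62.5 CPM in the 3 naive A549 libraries and at 71.8, 52.6, 51, 77.2 and 56.6 CPM in the 5 treated ones. In naive H1944 it was at 0.841, 1.25 and 0.904 CPM, and the 6 treated libraries ran from 43.4 to 56.2 CPM (median 49.5). The A549 ranges overlapped. Every treated H1944 library was above every naive one and inside or near the A549 range. The log2 fold change was 5.64 ± 0.27 in H1944 and -0.03 ± 0.11 in A549 (± SE), with a difference of 5.67 ± 0.29 (adjusted p = 2.42e-12). TGFB1 itself rose in both, by 4.31 ± 0.29 in H1944 and 1.24 ± 0.20 in A549, from naive means of 4.79 ± 1.27 and 76.4 ± 23.6 CPM (difference 3.06 ± 0.35, adjusted p = 1.8e-06). BMP6, a bone morphogenetic protein, went from 8 counts over the 3 naive H1944 libraries to 506 over the 6 treated ones, a CPM ratio of 78 (exact 95% counting interval 39.3 to 182), and its effect in A549 was -0.38 ± 0.21 (adjusted p = 0.192). GDF15, a stress-induced family member, fell in A549 from 20.3, 17.9 and 20 CPM to 1.82, 1.66, 0.887, 1.87 and 1.05 CPM and was at 11.1 ± 1.57 and 11.9 ± 2.03 CPM in naive and treated H1944 (difference 3.79 ± 0.31, adjusted p = 3.33e-08).

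Among receptors and co-receptors, 5 of 12 tested had a higher response in H1944 and 1 a lower one, the latter 3 without A549 naive library A and 2 without H1944 low-gate library B or C. TGFBR1, the type I receptor, rose to 843 ± 25.5 CPM in H1944 (n = 6) and 208 ± 65.4 CPM in A549 (n = 5) from naive levels of 56 ± 5.09 and 43 ± 6.41 CPM (SD, n = 3 each). The difference was 1.78 ± 0.19 (adjusted p = 1.38e-06). TGFBR2, the type II receptor, rose in H1944 by 1.42 ± 0.14, against 0.16 ± 0.13 in A549 (difference 1.26 ± 0.19, adjusted p = 7.85e-05), but stayed lower in treated H1944 at 115 ± 11.4 CPM than in A549 at 268 ± 36.6 CPM. ACVR1B, an activin type I receptor, fell in H1944 by 2.65 ± 0.14 on the log2 scale, with an A549 effect of -0.06 ± 0.14 (difference -2.58 ± 0.20, adjusted p = 1.33e-08). ACVR1, a type I receptor for bone morphogenetic proteins, rose by 2.42 ± 0.14 in H1944 and 0.37 ± 0.13 in A549 (difference 2.05 ± 0.19, adjusted p = 1.72e-07), and with A549 fitted alone its A549 change had an adjusted p of 0.411.

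Of 17 SMAD genes and regulators, 12 rose in H1944 and 9 in A549, all 9 of them in both, and the difference was higher in H1944 for 7 and lower for 3. That count of 7 was 4 without H1944 naive library A. SMAD7, the feedback inhibitor, was at 6.67, 4.77 and 6.71 CPM in naive A549 and 72, 68.9, 59.9, 59 and 55.3 CPM in treated A549. It was at 7.57, 6.24 and 5.27 CPM in naive H1944, and from 113 to 134 CPM (median 116) in treated H1944. Treated and naive libraries did not overlap in either line, and the difference in response was 0.94 ± 0.22 (adjusted p = 0.00442), with an adjusted p of 0.146 when no filter on low counts was used. PMEPA1, another negative regulator of the pathway, rose by 7.17 ± 0.17 and 4.67 ± 0.14 to treated means of 1205 ± 78 CPM in H1944 and 1011 ± 154 CPM in A549, so the difference of 2.50 ± 0.22 (adjusted p = 6.84e-08) came with a naive level of 8.32 ± 0.457 against 38.2 ± 5.64 CPM. SKIL, a SMAD corepressor, rose by 3.21 ± 0.13 and 1.85 ± 0.13 (difference 1.36 ± 0.18, adjusted p = 1.6e-05). SMAD6, the inhibitory SMAD of the bone morphogenetic protein branch, rose in H1944 by 1.81 ± 0.20 and had an effect of -0.62 ± 0.17 in A549 (difference 2.43 ± 0.26, adjusted p = 8.97e-07). Its fall in A549 passed in the joint fit but had an adjusted p of 0.106 with A549 alone. The differences for SMAD3, at 0.70 ± 0.15, and SMAD4, at -0.84 ± 0.16, were small, and their adjusted p of 0.00208 and 0.000508 became 0.0566 without H1944 naive library A and 0.0794 without A549 low-gate library C. With no filter on low counts SMAD3 had an adjusted p of 0.194. SMAD4 also lost the call with no filter and with a filter at 1 CPM, at an adjusted p of up to 0.377.

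Other targets responded to a similar degree. SH3KBP1, an adaptor protein of receptor endocytosis, was at 44.3, 47.3 and 48.5 CPM in naive A549 and 660, 716, 618, 589 and 672 CPM in treated A549. In H1944 it was at 47.5, 40.3 and 42.6 CPM naive and from 557 to 623 CPM (median 618) treated. The ranges of the lines overlapped both before and after treatment, with effects of 3.76 ± 0.12 and 3.74 ± 0.12 and a difference of 0.03 ± 0.17 (95% interval -0.33 to 0.38). TGFBI, a secreted matrix protein named for its induction by TGF-β, rose by 3.64 ± 0.12 in H1944 and 3.38 ± 0.12 in A549 (difference 0.26 ± 0.17, 95% interval -0.10 to 0.63), to 3525 ± 100 and 4976 ± 656 CPM, with a difference of 0.38 that was called without the A549 libraries rich in background reads. The interval also stayed within 2-fold for NECTIN4, a cell adhesion protein (difference 0.10 ± 0.42, 95% interval -0.79 to 0.99), for TP53I3, a p53-induced quinone oxidoreductase (0.19 ± 0.21, -0.26 to 0.64), and for ADAMTS15, a secreted metalloprotease (-0.08 ± 0.28, -0.67 to 0.52). THBS1, a matrix glycoprotein that activates latent TGF-β, rose by 4.38 ± 0.11 and 3.86 ± 0.11, and its difference of 0.52 ± 0.16 (adjusted p = 0.0267) was small and lost the call in 12 of 17 fits that each left out 1 library, with values from 0.44 to 0.69.

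Some shared risers had few counts in naive H1944, where COL5A1 had 10 and IL11 had 4 over the 3 libraries. COL5A1, a fibrillar collagen, and IL11, a cytokine of the IL-6 family, rose in both without a called difference (0.37 ± 0.85 and 0.31 ± 0.88, adjusted p = 0.805 and 0.823). ADAM19, a membrane metalloprotease, rose by 9.69 ± 0.44 and 7.82 ± 0.27, with a difference of 1.87 ± 0.52 (adjusted p = 0.00757) that was 1.08 and not called without A549 naive library A. Of 32 early TGF-β target genes, 28 rose in H1944 and 29 in A549, and the difference was higher for 14 and lower for 9, the latter 4 without A549 low-gate library A. NEDD9, a focal adhesion scaffold, was at 1.46 ± 0.363 and 57 ± 3.24 CPM naive and 195 ± 11.9 and 199 ± 22.9 CPM treated in H1944 and A549 (difference 5.03 ± 0.29, adjusted p = 5.31e-11).

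A part of the matrix genes had a higher response in H1944. Of 38 matrix glycoproteins and proteoglycans, the response was higher in H1944 for 18 and lower for 3, and of 26 collagens it was higher for 11 and lower for 4, against 10.2% and 10.7% of all genes. In H1944, 21 of the glycoproteins and proteoglycans rose and 7 fell, and in A549 17 rose and 6 fell; of the collagens 21 rose and 1 fell in H1944, and 15 rose and 3 fell in A549. The list medians of the difference were 0.81 and 1.49, against -0.03 over all genes. FN1, fibronectin (chr2:215360440-215436172, minus strand, GRCh38), was at 255, 209 and 239 CPM in naive A549 and 1535, 1837, 1185, 1308 and 1411 CPM in treated A549. Naive H1944 had 6.31, 8.32 and 7.61 CPM, and treated H1944 ran from 6442 to 8623 CPM (median 7560). H1944 began far below A549 and ended above every A549 library, with effects of 9.92 ± 0.18 and 2.59 ± 0.14 and a difference of 7.33 ± 0.23 (adjusted p = 1.1e-13).

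COL12A1, a collagen that associates with fibrils, was at 103, 81.4 and 73.8 CPM in naive and 74.2, 94.5, 67.2, 64 and 75.8 CPM in treated A549. It went from 4.2, 2.91 and 6.25 CPM in naive H1944 to values from 453 to 572 CPM (median 493) under TGF-β1. A549 libraries overlapped across treatment while those of H1944 did not, and the difference was 6.83 ± 0.27 (adjusted p = 1.53e-12). COL3A1, a fibrillar collagen, went in H1944 from 1 count over the naive libraries to 248 counts over the treated ones, a ratio of 306 (counting interval 54.4 to 12134), with an A549 effect of -0.07 ± 0.82. COL1A1, the main chain of type I collagen, rose in both to 3748 ± 421 CPM in H1944 and 321 ± 110 CPM in A549, and its difference of 1.78 ± 0.42 (adjusted p = 0.00591) was 1.36 and not called without A549 naive library A. COL4A1, a basement membrane collagen, ran the other way: it rose by 6.05 ± 0.15 in A549 and 3.94 ± 0.12 in H1944 (difference -2.10 ± 0.19, adjusted p = 9.52e-08), yet was still lower in treated A549 at 636 ± 203 CPM than in treated H1944 at 3227 ± 188 CPM. MATN2, a matrilin, rose in H1944 by 4.17 ± 0.23 with an A549 effect of -0.53 ± 0.17, and COL18A1, another basement membrane collagen, rose by 2.76 ± 0.23 with an A549 effect of -0.69 ± 0.20. The A549 falls of both passed in the joint fit but had an adjusted p of 0.0956 and 0.109 with A549 alone.

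Of 18 collagen maturation enzymes, 12 rose in H1944 and 8 in A549, and the response was higher in H1944 for 8 and lower for 2, the latter 0 or 1 without any of 14 single libraries. PLOD1 and PLOD2, lysyl hydroxylases of collagen, and SERPINH1, the collagen chaperone, rose in H1944 by 1.41 ± 0.13, 3.41 ± 0.17 and 1.91 ± 0.15, and in A549 had effects of -0.08 ± 0.13, 1.54 ± 0.16 and 0.30 ± 0.13, of which that of PLOD2 passed the test. All 3 differences passed, with adjusted p between 5.52e-06 and 6.56e-06. MMP2, a gelatinase, was at 26.7, 28.2 and 30.2 CPM in naive and 1064, 1488, 1040, 837 and 1127 CPM in treated A549. In H1944 it had 9 counts over the naive libraries and treated values from 1150 to 1609 CPM (median 1338), a ratio of 2705 (counting interval 1425 to 5917). The treated lines overlapped in level while the naive lines did not, and the difference was 6.10 ± 0.53 (adjusted p = 8.03e-10). SERPINE2, a protease inhibitor, rose by 5.28 ± 0.18 and 3.48 ± 0.16 (difference 1.80 ± 0.23, adjusted p = 1.21e-05). Of 30 matrix metalloproteases and inhibitors, 11 were higher and 2 lower in H1944, the 2 being 1 without A549 low A, A549 low C or H1944 naive C.

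**Figure D2:**
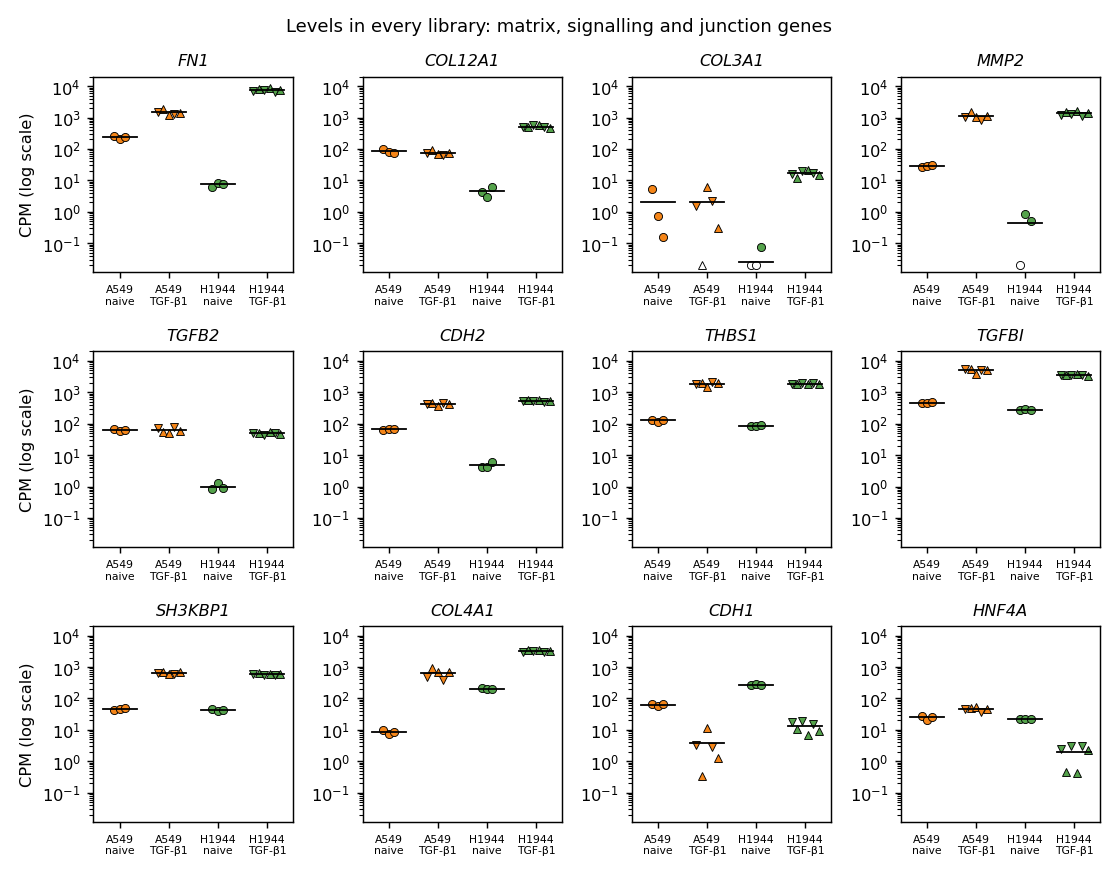
CPM on a log scale in each of the 17 libraries for 12 genes, with circles for naive cells, downward triangles for the mVenus-low and upward triangles for the mVenus-high gate, bars for group means, and open symbols at the bottom for libraries with 0 counts. FN1, COL12A1, MMP2, TGFB2 and CDH2 start lower in naive H1944 than in naive A549, whereas THBS1, TGFBI and SH3KBP1 rise by similar amounts and HNF4A falls in H1944 while rising in A549.

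Most contractile genes also had a higher response in H1944. Of 24 tested, 21 rose in H1944 and 16 in A549, and the difference was higher in H1944 for 14 and lower for 1 (2 without A549 naive library C), with a median of 1.82. The A549 count was 10 without A549 low-gate library A and 10 with A549 fitted alone. TPM2, a tropomyosin of actin filaments, was at 373, 397 and 410 CPM in naive and 565, 616, 545, 585 and 580 CPM in treated A549. In H1944 it was at 52.1, 51.2 and 55 CPM naive and from 648 to 765 CPM (median 681) treated. The rise was several-fold in H1944 and slight in A549 (3.69 ± 0.12 and 0.50 ± 0.11, difference 3.19 ± 0.16, adjusted p = 8.56e-11). ACTN1, an actin cross-linker, and CALD1, caldesmon, also rose further in H1944, with differences of 2.75 ± 0.16 and 2.67 ± 0.16 (adjusted p = 7.43e-10 and 1.07e-09). The A549 rise of CALD1 was not slight, at 1.39 with A549 fitted alone (adjusted p = 0.00187). The A549 rises of TPM2 and ACTN1 had adjusted p of 0.343 and 0.115 with A549 alone. YAP and TEAD targets were higher in H1944 for 14 of 24 and lower for 3, among them CCN1, a matricellular protein (2.73 ± 0.20), and NT5E, the ectonucleotidase CD73 (2.42 ± 0.23). The count of 3 was 1 without any of 12 single libraries. Of 19 integrins, 9 were higher and 2 lower, led by ITGAV, which pairs with several β subunits and binds latent TGF-β (3.92 ± 0.12 in H1944, 2.01 ± 0.12 in A549, difference 1.91 ± 0.16), and ITGA2, a collagen receptor subunit (difference 2.57 ± 0.24). ITGB5, an αv partner, moved in opposite directions, by 0.93 ± 0.15 in H1944 and -0.82 ± 0.15 in A549.

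**Figure D3:**
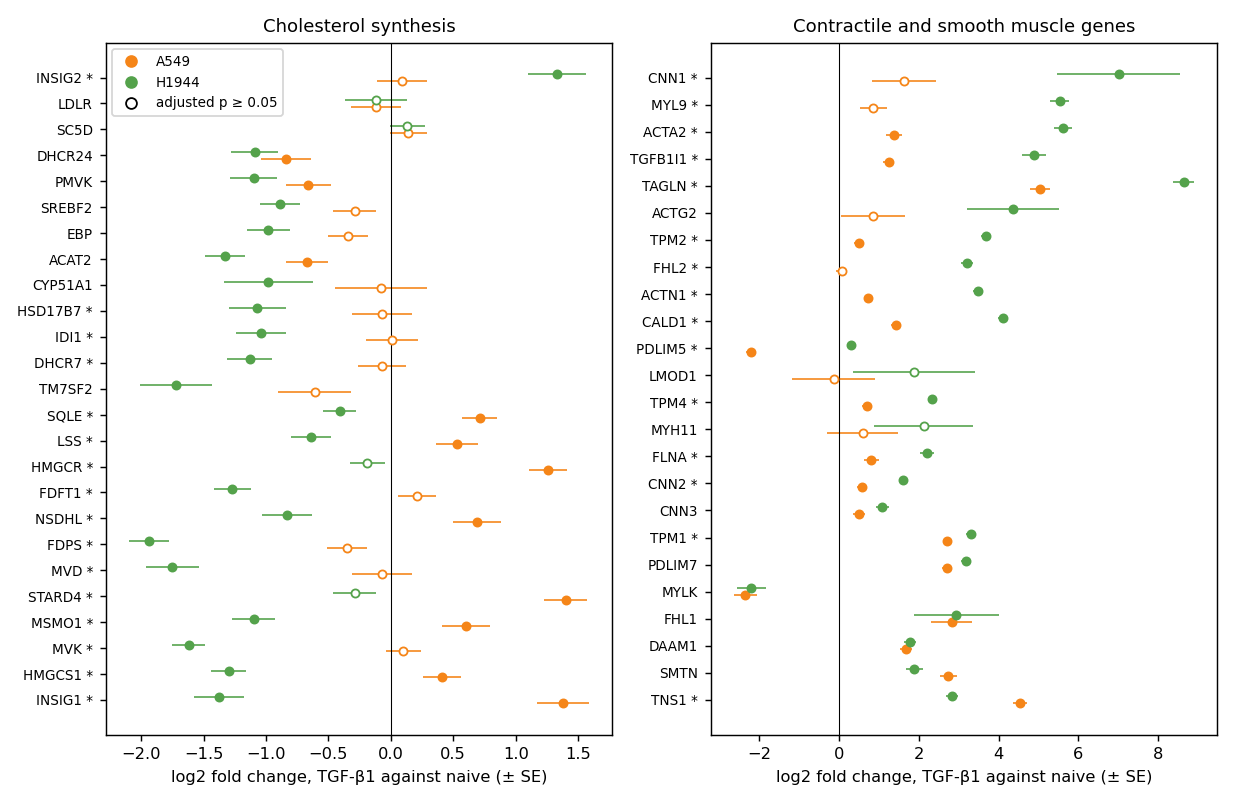
Log2 fold change of TGF-β1-treated against naive cells (± SE) in A549 and H1944 for the tested genes of 2 lists (1 cholesterol synthesis gene not shown), ordered by the difference between the lines, with filled points for adjusted p under 0.05 within a line and an asterisk where the difference passed. Most contractile genes rise further in H1944, and most cholesterol synthesis genes fall in H1944 and lie near or above 0 in A549.

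E-cadherin fell in both lines. CDH1 was at 64.5, 58.3 and 67.1 CPM in naive and 3.39, 0.333, 11.3, 2.81 and 1.26 CPM in treated A549. It was at 267, 278 and 269 CPM in naive H1944 and from 7.08 to 18.7 CPM (median 13.1) in treated H1944. It fell by 4.45 ± 0.33 and 4.21 ± 0.38 on the log2 scale in H1944 and A549, and the difference of -0.25 ± 0.50 had a 95% interval of -1.29 to 0.80, so a difference of 2-fold was not resolved. Without A549 high-gate library B, the treated A549 library with the most CDH1, the difference turned to 0.82 and passed (adjusted p = 0.0221), and it was 0.86 (adjusted p = 0.00996) without both A549 libraries rich in background reads, a larger fall in A549 than in H1944. The sign of the difference thus rested on that library. CDH2, N-cadherin, was gained more in H1944: it went from 4.2, 4.16 and 6.17 CPM to values from 483 to 584 CPM (median 521) there, and in A549 from 62.9, 69.7 and 66.3 to 427, 442, 366, 463 and 427 CPM. No treated library overlapped a naive one in its line, and the difference was 3.95 ± 0.22 (adjusted p = 2.3e-10). VIM, vimentin, rose by 3.23 ± 0.13 and 1.01 ± 0.13 (difference 2.22 ± 0.19, adjusted p = 6.34e-08) and reached 1478 ± 95.2 CPM in H1944 and 1986 ± 238 CPM in A549.

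Of 15 transcription factors of the epithelial-mesenchymal transition, 10 rose in H1944 and 11 in A549, and the difference was higher for 5 and lower for 2, the latter 1 without H1944 naive library C. ZEB1, a repressor of CDH1, rose by 2.16 ± 0.14 and 1.04 ± 0.12 (difference 1.12 ± 0.18, adjusted p = 0.000164), SOX4 by 4.93 ± 0.15 and 2.58 ± 0.13 (2.36 ± 0.20, adjusted p = 7.06e-08), and ETS1 by 5.06 ± 0.21 and 2.31 ± 0.14 (2.75 ± 0.25, adjusted p = 9.09e-08). SNAI1 and SNAI2, zinc finger repressors of CDH1, rose in both in the joint fit without a called difference (-0.64 ± 0.64 and 1.58 ± 0.92), and that of SNAI2 was 2.05 with an adjusted p of 0.049 without A549 naive library B. ZEB2 had a difference of 0.88 ± 0.61 (adjusted p = 0.361), which was 1.39 and called without A549 high-gate library B. The A549 rises of SNAI1 and ZEB2 had adjusted p of 0.22 and 0.147 with A549 alone. SNAI2 had 5 counts over naive H1944. TWIST1 passed in neither line. FOXC1, a forkhead factor, fell in A549 by 2.23 ± 0.14, with -0.29 ± 0.13 in H1944 (difference 1.94 ± 0.19, adjusted p = 5.3e-07).

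Of 25 tight junction and polarity genes, 17 fell in H1944 and 12 in A549, 10 of them in both, with the difference lower in H1944 for 10 and higher for 3. EPCAM, the epithelial adhesion molecule, fell in both, further in H1944 (-3.02 ± 0.19 against -1.41 ± 0.20, difference -1.61 ± 0.28, adjusted p = 0.00024). CLDN2, a pore-forming claudin, fell in A549 from 138 ± 1.82 to 6.39 ± 1.72 CPM and was at 2.3 ± 0.362 CPM in naive H1944, where its effect was -0.30 ± 0.47 (difference 4.28 ± 0.52, adjusted p = 2.52e-05). CLDN1, a barrier-forming claudin, rose in H1944 by 3.33 ± 0.15, against 0.34 ± 0.15 in A549 (difference 2.99 ± 0.21, adjusted p = 5.05e-09). KRT8 and KRT18 fell in both, with differences of 0.42 ± 0.20 and 0.20 ± 0.20 (adjusted p = 0.166 and 0.551), the former called at 0.43 without A549 high-gate library B. That of KRT8 was also called with DESeq2, with limma-voom and without both A549 libraries rich in background reads. KRT7, a keratin of glandular epithelium, fell in H1944 by 1.29 ± 0.14 and had an effect of 0.75 ± 0.14 in A549, where its rise passed in the joint fit and had an adjusted p of 0.167 with A549 alone (difference -2.04 ± 0.20, adjusted p = 3.36e-07). DSC2, a desmosomal cadherin, rose by 3.59 ± 0.13 and 1.81 ± 0.12 (difference 1.78 ± 0.17, adjusted p = 2.84e-07). ELF3, an epithelial ETS factor, fell alike (-2.84 ± 0.12 and -3.17 ± 0.11, 95% interval of the difference -0.01 to 0.68), as did MAL2, a protein of apical transport (-4.21 ± 0.19 and -4.56 ± 0.21, interval -0.25 to 0.95).

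Genes of gut and liver type, which adenocarcinoma lines can express, fell for 16 of 25 tested in H1944 and 12 in A549, with 8 genes in both. HNF4A, a nuclear receptor that specifies hepatocytes and gut epithelium, was at 27.5, 21.3 and 26.1 CPM in naive and 46.5, 50.9, 52.3, 35.7 and 46.2 CPM in treated A549. In H1944 it was at 21.4, 22.9 and 22.6 CPM naive and from 0.416 to 3.13 CPM (median 2.4) treated. From naive levels that did not differ past the test (adjusted p = 0.396), the gene rose in A549 and fell in H1944 with no overlap in either line, and the difference was -4.47 ± 0.33 (adjusted p = 1.43e-09). The fibrinogen chains FGA and FGG and the related FGL1 fell in both, by 7.43 ± 0.53, 7.4 ± 0.40 and 7.49 ± 0.68 in H1944 and 6.88 ± 0.37, 8.26 ± 0.37 and 6.78 ± 0.48 in A549, with no called difference. That of FGG was 1.53 and called without the A549 libraries rich in background reads. CPS1, the first enzyme of the urea cycle, also fell in both (-3.60 ± 0.12 and -3.13 ± 0.13, 95% interval of the difference -0.86 to -0.09). Its difference was -0.93 and called when the high gate alone was used. It was also called with limma-voom and with a replicate block, at -0.55 in each. Among protein-coding genes of at least 5 CPM in both lines it was -0.47 and called. HAL, histidine ammonia-lyase, fell in H1944 from 107 ± 5.19 to 1.21 ± 0.626 CPM and had an A549 effect of 0.33 ± 0.54 (difference -6.78 ± 0.87, adjusted p = 1.95e-06). NR1H4, the bile acid receptor, fell by 6.83 ± 0.96 in H1944 and 1.36 ± 0.43 in A549 (difference -5.47 ± 1.05, adjusted p = 3.85e-05), the A549 part with an adjusted p of 0.255 alone. It had 10 counts over treated H1944. CDH17, an intestinal cadherin, fell further in A549 (-3.37 ± 0.20 against -1.17 ± 0.16 in H1944, difference 2.2 ± 0.26). Of 25 gut and liver genes, 5 were higher and 5 lower in H1944, against 10.2% and 10.7% of all genes.

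Of 23 mucins and mucous secretory genes tested, 11 fell and 2 rose in H1944, and in A549 8 fell, which was 14 without high-gate library B, and 1 rose, which was 0 without any of 9 single libraries. The difference was higher in H1944 for 3 and lower for 4, against 10.2% and 10.7% of all genes, and the 4 were 2 without A549 low-gate library A. Of all genes 23.6% fell and 20.0% rose in H1944, and 15.5% fell and 15.7% rose in A549. MUC5B, a gel-forming airway mucin, fell from 598, 583 and 1232 CPM to 1.82, 0, 4.21, 0.624 and 0.733 CPM in A549. In H1944 it fell from 2050, 1886 and 2268 CPM to 2 counts over 6 treated libraries, a ratio of 16020 (counting interval 4435 to 132289). MUC5B was thus nearly lost in both, and the called difference of -4.47 ± 1.85 (adjusted p = 0.00868) was -3.82 without A549 low-gate library A. The difference was not called with limma-voom (-2.66, adjusted p = 0.0552) or when the low gate alone was used (-4.34, adjusted p = 0.0907). CEACAM6, an adhesion molecule of mucosal epithelium, was at 571, 614 and 601 CPM in naive and 5.08, 7.66, 6.43, 6.71 and 5.65 CPM in treated A549. In H1944 it was at 5.89, 5.41 and 6.33 CPM naive and from 5.83 to 20.5 CPM (median 12.1) treated. It fell in every treated A549 library to the level of H1944 and rose slightly in H1944, where the naive and treated ranges overlapped, and the difference was 7.61 ± 0.26 (adjusted p = 2.68e-13). MUC4, a membrane mucin, and CREB3L1, a transcription factor of secretory cells, fell in H1944 (-4.78 ± 0.86 and -4.92 ± 0.67), with A549 effects of 0.57 ± 0.69 and -0.42 ± 0.48. CREB3L1 had 9 counts over treated H1944. C3, the central complement protein, fell in H1944 from 1800 ± 84.3 to 36.9 ± 5.03 CPM and was low throughout A549, at 21.8 ± 4.81 and 13.3 ± 4.8 CPM (difference -4.88 ± 0.26, adjusted p = 1.74e-10). Its A549 fall had an adjusted p of 0.0864 with A549 alone.

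Opposite changes included secreted regulators, enzymes and transcription factors. DKK1, a secreted inhibitor of WNT signalling (chr10:52314296-52318042, plus strand, GRCh38), was at 207, 231 and 160 CPM in naive and 25.5, 34.6, 18.4, 30.6 and 33.1 CPM in treated A549. In H1944 it went from 1 count over the 3 naive libraries to treated values from 2.91 to 18.8 CPM (median 12.3), a ratio of 211 (counting interval 37.4 to 8381). The lines moved towards each other with no overlap of naive and treated libraries in either, and the difference was 9.97 ± 2.24 (adjusted p = 1.38e-08), its size limited by that 1 count. THSD4, a matrix protein of the ADAMTS-like family (chr15:71096952-71783383, plus strand), fell in A549 from 234, 199 and 256 CPM to 61.5, 52.3, 76.7, 48.2 and 42.8 CPM. It rose in H1944 from 3.36, 2.5 and 3.01 CPM to values from 42.3 to 63.8 CPM (median 59.3). The naive lines were far apart and the treated lines overlapped (difference 6.24 ± 0.33, adjusted p = 3.74e-11). PCDH7, a protocadherin, ARHGAP26, a GTPase-activating protein, and INSL4, a relaxin-family peptide, moved in the same directions, with effects of 4.11 ± 0.41, 2.76 ± 0.10 and 1.70 ± 0.24 in H1944 and -2.40 ± 0.23, -1.82 ± 0.09 and -1.94 ± 0.17 in A549. CCN5, a matricellular protein, had a difference of 4.63 ± 1.02 (adjusted p = 0.0026) at no more than 9.64 CPM in any library, and its A549 fall had an adjusted p of 0.171 with A549 alone.

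In the other direction, ANPEP, aminopeptidase N (chr15:89784889-89815401, minus strand), rose in A549 from 4.2, 2.17 and 1.52 CPM to 119, 117, 96.9, 72.9 and 90.9 CPM. In H1944 it fell from 83.2, 83.6 and 85.4 CPM to values from 7.91 to 13.4 CPM (median 12.6). The order of the lines reversed, from a log2 difference, H1944 minus A549, of 4.95 ± 0.30 in naive cells to -3.08 ± 0.19 after treatment, and the difference was -8.03 ± 0.36 (adjusted p = 2.64e-12). SORCS2, a sorting receptor for neurotrophins, VGF, a secreted neuropeptide precursor, and NOG, noggin, an antagonist of bone morphogenetic proteins, rose in A549 by 3.94 ± 0.56, 3.08 ± 0.61 and 4.69 ± 0.64 and fell in H1944 by 2.39 ± 0.37, 2.58 ± 0.58 and 0.93 ± 0.27. FBN1, fibrillin 1 of elastic microfibrils, rose in A549 from 28.8 ± 3.23 to 134 ± 28.9 CPM and fell in H1944 from 349 ± 9.33 to 125 ± 12.3 CPM (difference -3.60 ± 0.16, adjusted p = 9.82e-12). ICAM1, a leukocyte adhesion molecule, fell in H1944 by 1.72 ± 0.27, and its A549 effect of 1.78 ± 0.47, at no more than 4.21 CPM, had an adjusted p of 0.234 with A549 alone. RNF182, a ubiquitin ligase, was too low in H1944 for a fit of that line by itself (difference -6.81 ± 1.04). Over naive A549, NOG, SORCS2 and RNF182 had 4, 7 and 10 counts, and RNF182 had 9 over treated H1944. Of the 12 opposite genes with the largest opposed effects, 9 were opposite with each line fitted alone.

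**Figure D4:**
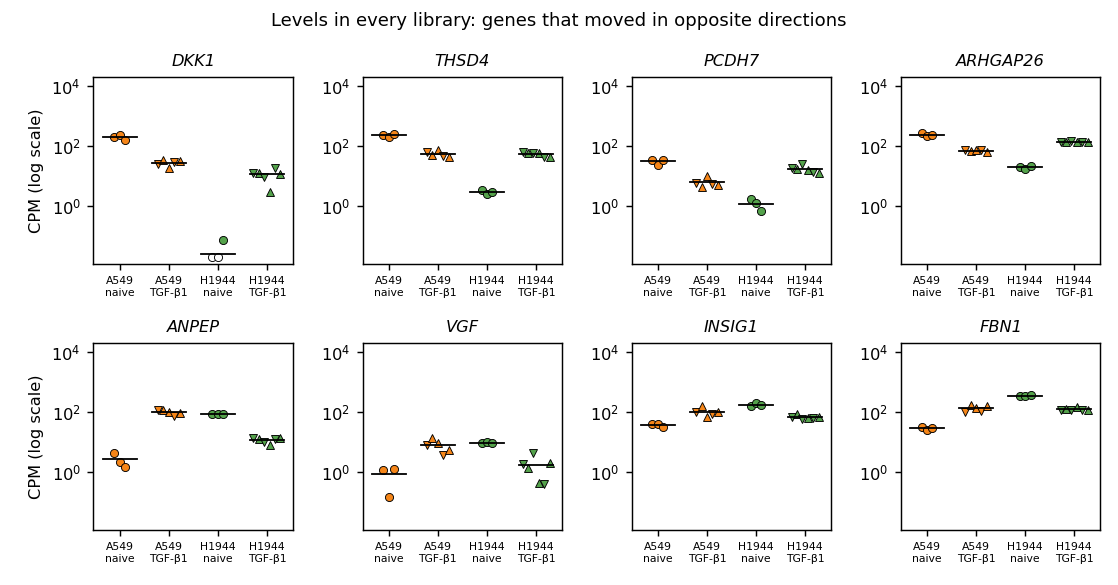
CPM on a log scale in each of the 17 libraries for 8 genes called as opposite, with symbols as for the matrix genes (circles naive, downward triangles low gate, upward triangles high gate, bars means, open symbols 0 counts). In the upper row the gene falls in A549 and rises in H1944, and in the lower row the reverse.

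The promoter sequence of 4 genes that stand for different classes is shown here: DKK1 and THSD4 as opposite genes, SMAD7 as a shared riser, and FN1 as a shared riser with a larger rise in H1944. Each run is the 250 bases before the RefSeq start (GRCh38.p14), 5′ to 3′ on the strand of the gene, and capitals mark CAGAC, the core of the SMAD-binding element, or its complement GTCTG.
DKK1, chr10:52314031-52314280, plus strand: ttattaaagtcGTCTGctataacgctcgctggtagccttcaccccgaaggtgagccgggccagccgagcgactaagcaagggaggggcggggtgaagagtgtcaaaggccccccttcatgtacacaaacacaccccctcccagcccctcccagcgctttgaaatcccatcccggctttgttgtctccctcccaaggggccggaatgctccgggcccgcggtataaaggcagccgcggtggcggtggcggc
THSD4, chr15:71096644-71096893, plus strand: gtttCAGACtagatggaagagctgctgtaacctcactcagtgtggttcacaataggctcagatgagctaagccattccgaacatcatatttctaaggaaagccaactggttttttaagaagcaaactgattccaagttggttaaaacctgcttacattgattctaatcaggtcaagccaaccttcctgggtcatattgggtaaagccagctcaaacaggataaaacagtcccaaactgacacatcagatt
SMAD7, chr18:48950966-48951215, minus strand: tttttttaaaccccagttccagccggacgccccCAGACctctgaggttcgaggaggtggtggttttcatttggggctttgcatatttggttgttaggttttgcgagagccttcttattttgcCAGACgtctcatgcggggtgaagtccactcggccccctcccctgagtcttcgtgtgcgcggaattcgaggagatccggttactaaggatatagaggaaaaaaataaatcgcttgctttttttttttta
FN1, chr2:215436069-215436318, minus strand: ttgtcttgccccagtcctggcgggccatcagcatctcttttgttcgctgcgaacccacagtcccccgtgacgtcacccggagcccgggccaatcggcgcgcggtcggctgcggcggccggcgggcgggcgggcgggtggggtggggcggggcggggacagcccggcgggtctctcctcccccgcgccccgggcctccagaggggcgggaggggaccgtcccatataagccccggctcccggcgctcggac
DKK1 and THSD4 hold 1 match each, SMAD7 holds 2 and FN1 none in this window. CAGAC on either strand was in 37.8% of all 27305 promoters of this length, CACCTG or CAGGTG, the box bound by SNAI and ZEB factors, in 17.5%, and TGANTCA, the AP-1 site, in 6.6%, each searched on both strands, and no match of one can lie wholly within another. Of tested protein-coding genes, 11396 of 14093 had a promoter in the table, and 35.9% of them held CAGAC. Over the 8 classes of shared, opposite and line-only genes, the share with CAGAC ran from 32.2% (opposite genes that rose in A549) to 39.3% (those that rose in H1944), and was 35.7% in shared risers and 33.4% in both shared and H1944-only fallers. CACCTG or CAGGTG was in 15.7% of the tested genes and in 13.5% (A549-only risers) to 20.1% (H1944-only fallers) of a class. TGANTCA was in 4.11% of the tested genes and in 2.63% (A549-only fallers) to 5.98% (opposite genes that rose in H1944) of a class. These shares are a description with no test.

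Among genes called in A549 only, TRIM29, a tripartite motif protein, fell in A549 from 26.7, 30.4 and 34.6 CPM to 4.04, 3, 4.66, 2.96 and 3.35 CPM. It was at 26.9, 26.6 and 23 CPM in naive H1944 and from 15.4 to 28.9 CPM (median 24.5) in treated H1944. Naive levels did not differ past the test (adjusted p = 0.172) and the H1944 libraries overlapped across treatment (difference 3.03 ± 0.26, adjusted p = 7.46e-08). GAS6, the ligand of the TAM receptor kinases, and CDA, cytidine deaminase, rose in A549 by 2.89 ± 0.27 and 2.79 ± 0.25, to 14.2 ± 3.49 and 19.8 ± 5.85 CPM, near the 14.8 ± 0.684 and 27.8 ± 5.2 CPM of naive H1944, where their effects were -0.10 ± 0.22 and -0.34 ± 0.19. SLC6A17, a neutral amino acid transporter, had the same form (4.05 ± 0.38 in A549, 0.05 ± 0.22 in H1944). MOB3B, a kinase adaptor, rose by 4.32 ± 0.32 in A549 with 0.76 ± 0.34 in H1944, the latter called with H1944 alone (adjusted p = 0.00149). FLNC, a filamin, rose by 2.66 ± 0.43 in A549 to 7.63 ± 3.36 CPM, under its 232 ± 9.89 CPM in naive H1944, where it rose with that line fitted alone (adjusted p = 0.000233). ADM, the peptide adrenomedullin, A4GALT, a glycolipid synthase, and PDE1C, a phosphodiesterase, fell in A549 by 3.07 ± 0.33, 3.37 ± 0.56 and 3.62 ± 0.20, with differences of 2.70 ± 0.42, 3.51 ± 0.77 and 4.63 ± 0.46. With H1944 fitted alone PDE1C rose there by 1.08 (adjusted p = 0.0113), and so was opposite.

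Some responses were in genes with few or no counts in 1 arm. IGFL3, a small secreted protein of the IGF-like family, went from 4 counts over naive A549 to 4874 over treated A549, a ratio of 797 (counting interval 311 to 2926), and had 4 and 2 counts in naive and treated H1944. LCE3E, a gene of the epidermal cornified envelope, went from 1 to 832 counts in A549 (ratio 544, counting interval 97.4 to 21517). Their differences rested on these few H1944 counts and had adjusted p of 0.0687 and 0.987 without H1944 naive library C. S100A8, a calprotectin subunit, went in H1944 from 1082 counts to 1, a ratio of 877 (counting interval 157 to 34669), and had 0 counts over naive and 5 over treated A549. Its called difference was lost without A549 high-gate library B, where the adjusted p was 1. C5orf46, a small secreted protein, had 0 counts over naive H1944 and 241 over the treated libraries, at least 99.1-fold higher against a floor of 3 counts over the arm. CCNA1, a germ-line cyclin, fell in H1944 by a ratio of 126 (counting interval 64 to 294). Its difference from A549, with 5 and 4 counts there, lost the call at -4.59 without A549 high-gate library B and -5.22 without A549 low-gate library C. LFNG, a modifier of NOTCH receptors, and TNFAIP6, a hyaluronan-binding protein, had 0 counts over naive H1944, and rose at least 29.6-fold and at least 127-fold there. Both were transcribed in A549, at 7.93 ± 1.62 and 0.824 ± 1.17 CPM when naive and 8.02 ± 1.8 and 4.34 ± 2.13 CPM when treated (SD, n = 3 and 5). The A549 rise of TNFAIP6 passed in the joint fit and had an adjusted p of 0.105 with A549 alone.

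Most cholesterol synthesis genes fell in H1944 and did not fall in A549. Of 26 tested, 21 fell and 1 rose in H1944, while 4 fell and 8 rose in A549, the 4 being 7 without A549 high-gate library A. The difference was lower in H1944 for 15 and higher for 1, with a median of -1.08, and leaving out any 1 library gave 11 to 16. INSIG1, the sterol sensor that retains SREBP in the endoplasmic reticulum, rose in A549 from 39.9, 40.9 and 30.6 CPM to 103, 155, 69.8, 85.2 and 97.5 CPM. It fell in H1944 from 160, 193 and 168 CPM to values from 59.6 to 82.9 CPM (median 65.3). No treated library overlapped a naive one in either line (difference -2.77 ± 0.29, adjusted p = 1.02e-06). HMGCS1, the synthase that feeds the mevalonate pathway, and MVK, mevalonate kinase, fell in H1944 by 1.3 ± 0.14 and 1.62 ± 0.13, with A549 effects of 0.41 ± 0.15 and 0.10 ± 0.14. The A549 rise of HMGCS1 had an adjusted p of 0.523 with A549 alone. The 8 A549 risers were 3 with A549 fitted alone, and 3 to 5 without any of 13 single libraries, the lowest without A549 low A, low C or naive C.

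Ribosomal protein genes fell in H1944 for all 75 tested and in A549 for 51, and the difference was lower in H1944 for 40, with list medians of -1.34 and -0.59. RPL13A, of the large subunit, was at 3141 ± 329 CPM in naive and 753 ± 35.2 CPM in treated H1944, and at 3157 ± 400 and 2595 ± 571 CPM in A549 (difference -1.75 ± 0.24, adjusted p = 2.71e-05). These counts were not stable: that of the difference was 5 to 24 without any of 12 single libraries, the lowest without A549 low C, and the A549 count was 21 without naive library B, 29 without low-gate library A and 7 with A549 fitted alone. Many ribosomal protein genes have pseudogenes that can share their reads. Mitochondrially encoded transcripts made up 6.39 to 9.31% of counts in naive and 5.95 to 6.75% in treated A549, and 6.59 to 7.41% and 4.46 to 5.81% in H1944. The naive and treated ranges overlapped in A549 and lay apart in H1944, and the part of this share in the ribosomal counts was not tested.

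Proliferation genes fell in both, 40 of 60 in H1944 and 58 in A549, and the fall was smaller in H1944 by the median (-0.64 against -0.92). The difference was higher in H1944 for 18 and lower for 7, against 10.2% and 10.7% of all genes, so the share of lower responses lay near that of all genes. The 18 were 6 to 11 without any of 5 libraries: A549 low A, and H1944 naive A, naive B, high C and low B. The 7 were 0 to 2 without any of 13 libraries. CENPE, a kinetochore motor, fell in A549 by 1.16 ± 0.16 and rose in H1944 by 0.48 ± 0.16 (difference 1.63 ± 0.23, adjusted p = 2.83e-05). MYBL2, a factor of late cell cycle genes, and KIF20A, a mitotic kinesin, fell in A549 by 1.2 ± 0.13 and 1.40 ± 0.12, with -0.13 ± 0.12 and -0.32 ± 0.13 in H1944. CDKN1A, the cyclin-dependent kinase inhibitor p21, rose in both and further in A549, from 5.19 ± 0.693 to 106 ± 39.1 CPM, against 50.8 ± 7.17 to 253 ± 28.3 CPM in H1944 (difference -1.9 ± 0.29, adjusted p = 5.56e-05). GADD45B, a stress-induced SMAD target, rose by 2.44 ± 0.18 in A549 and had 0.24 ± 0.15 in H1944, while GADD45A rose by 3.31 ± 0.14 in H1944 and 1.9 ± 0.13 in A549. Of 35 NRF2 targets, genes of antioxidant defence, 26 fell in H1944 and 32 in A549. The response was higher in H1944 for 12 and lower for 5, against 10.2% and 10.7% of all genes, the 5 being 1 to 3 without any of 14 single libraries. Of 29 genes of the unfolded protein response and secretory pathway, 8 rose and 5 fell in H1944, and none rose and 12 fell in A549, and the 8 were 4 or 5 without any of 7 single libraries. The difference was higher in H1944 for 11, which was 4 to 6 without any of 10 single libraries, and lower for 1, which was 3 without A549 high-gate library B. Over all genes these shares were 10.2% and 10.7%. SLC7A11, the cystine transporter, rose in H1944 by 0.87 ± 0.12 against -0.80 ± 0.12 in A549 (difference 1.67 ± 0.17, adjusted p = 6.38e-07), an A549 fall with an adjusted p of 0.0567 when that line was fitted alone. CYP4F11, a fatty acid hydroxylase, fell further in A549 (-4.45 ± 0.16 against -2.22 ± 0.13, difference 2.23 ± 0.21).

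Of 21 MHC class I and antigen processing genes, 7 rose and 5 fell in H1944, and 3 rose and 5 fell in A549. The 5 that fell in H1944 were 2 or 3 without any of 7 single libraries, and the 3 that rose in A549 were 0 or 1 without any of 12. The difference was higher in H1944 for 7 and lower for none (1 without A549 naive library A), against 10.2% and 10.7% of all genes. HLA-B, a class I heavy chain, and B2M, the class I light chain, rose in H1944 by 1.77 ± 0.18 and 1.24 ± 0.18, and had A549 effects of -0.31 ± 0.22 and -0.36 ± 0.18. HLA-B went from 24, 36.2 and 23.1 CPM to values from 83.1 to 107 CPM (median 93.2) in H1944, and was at 9.71, 10.7 and 5.34 CPM in naive and 7.68, 6.99, 6.43, 6.55 and 7.96 CPM in treated A549. Only the H1944 libraries separated by treatment (difference 2.08 ± 0.28, adjusted p = 1.9e-05). HLA genes are highly alike, so reads may be split between them. GBP1 and GBP2, interferon-induced GTPases, rose in H1944 by 3.03 ± 0.17 and 1.61 ± 0.15, with A549 effects of 0.62 ± 0.22 and 0.13 ± 0.17, and the A549 rise of GBP1 had an adjusted p of 0.432 with A549 alone. Of 39 interferon-stimulated genes, 12 rose and 12 fell in H1944 (7 fell without naive library C), and 8 rose and 9 fell in A549 (5 rose without any of 9 single libraries). The response was higher in H1944 for 8, against 10.2% of all genes, which was 5 without H1944 naive A or naive B, and lower for 1, which was 0 to 3 without any of 4. HLA-DMA and HLA-DMB, which load class II molecules, fell in both, further in H1944 (differences -3.82 ± 0.87 and -2.84 ± 0.94, which were -2.08 and -2.26 and not called in the low gate alone), and CIITA, the class II activator, passed in neither. The A549 fall of HLA-DMA had an adjusted p of 0.097 with A549 alone. HLA-DMB had 10 counts over treated H1944.

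Of 29 receptor tyrosine kinases, 7 had a higher and 3 a lower response in H1944, against 10.2% and 10.7% of all genes, so the share of lower responses lay near that of all genes. FGFR3, a fibroblast growth factor receptor, fell in H1944 from 154 ± 11.8 to 4.02 ± 1.25 CPM and in A549 from 7.05 ± 1.69 to 1.47 ± 0.753 CPM (difference -2.96 ± 0.38, adjusted p = 1.54e-05). EGFR rose in both, by 2.72 ± 0.13 in H1944 and 1.56 ± 0.12 in A549 (difference 1.15 ± 0.18, adjusted p = 7.82e-05). ROR1, a receptor kinase of WNT signalling, rose in H1944 by 3.56 ± 0.34 and had 0.20 ± 0.23 in A549 (difference 3.36 ± 0.41, adjusted p = 2.72e-06). VEGFC, a lymphatic growth factor, fell in H1944 by 1.69 ± 0.14, with 0.48 ± 0.13 in A549 (difference -2.18 ± 0.19, adjusted p = 7.58e-08). WNT7B, a WNT ligand of lung epithelium, rose in H1944 by 1.62 ± 0.21, with -0.67 ± 0.20 in A549 (difference 2.29 ± 0.29). The A549 parts of VEGFC and WNT7B passed in the joint fit and had adjusted p of 0.237 and 0.167 with A549 alone. FOSL2, an AP-1 subunit, rose further in A549 (2.56 ± 0.15 against 0.77 ± 0.14, difference -1.79 ± 0.20, adjusted p = 2e-06), and FOS rose in A549 by 1.22 ± 0.19 with -0.29 ± 0.18 in H1944. EZH2, the methyltransferase of polycomb complex 2 that the series also targets with an inhibitor, had effects of -0.29 ± 0.14 and -0.70 ± 0.14 and no called difference (0.41 ± 0.20, adjusted p = 0.157), which was 0.68 and called without A549 high-gate library C. Its A549 fall passed in the joint fit and had an adjusted p of 0.0619 with A549 alone.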

How the data were processed

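The authors deposited raw read counts per gene for each library. Per the submitters' processing notes, bcl2fastq 2.20.0, STAR 2.6.0c and HTSeq 0.12.3 were used with GRCh38. The annotation release and the strand setting of the counting are not given in the sources used here, so reads of overlapping and antisense genes may not be told apart. Identifiers were matched to GENCODE 29 for 56753 of 60483 genes.

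The 17 libraries in 6 groups were fitted together in edgeR 4.0.16 (R 4.3.3) with TMM normalization, filterByExpr and the quasi-likelihood F test, with Benjamini-Hochberg adjustment over all genes tested at 0.05. Every adjusted p in the text comes from that test unless another is named. Both mVenus gates weighed equally. An error beside a log2 fold change is its standard error, and CPM are counts scaled to a common library total, with no TMM factor. Named genes were the most extreme of each class, the 3 with the smallest adjusted p of the difference in each list, and a set of key genes. Genes, lists and members were chosen with earlier results of these data known. Some genes with 10 or fewer counts over the libraries of an arm have a CPM ratio with an exact 95% interval for counting error only, and some with 0 counts a bound from 3 counts. Where such a gene has a log2 value alone, its counts are given beside it. Alternatives were another normalization, 2 other filters, DESeq2 1.42.0, limma 3.58.1 with voom weights, a replicate block, each gate alone, each line alone, all 28 libraries, a 1.5-fold threshold and libraries left out. Another fitted only protein-coding genes of at least 5 CPM in both lines. The scripts were tested on simulated counts. Promoters are RefSeq's. Some genes are not reported here.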

Additional observations from a re-analysis of the deposited data

Results flagged for a closer look

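In 314 genes the effect of TGF-β1 passed the test in both lines with opposite signs, and the difference itself passed the interaction test in edgeR's joint fit. Of the 12 of these with the largest opposed effects, 11 are given here because the lines moved in opposite directions rather than by different amounts. The log2 difference, H1944 minus A549, was positive for DKK1 at 9.97, PCDH7 at 6.51, THSD4 at 6.24, CCN5 at 4.63, ARHGAP26 at 4.58 and INSL4 at 3.65. It was negative for ANPEP at -8.03, RNF182 at -6.81, SORCS2 at -6.33, VGF at -5.66 and ICAM1 at -3.51. With each line fitted alone, CCN5, ICAM1 and RNF182 were no longer opposite and the other 8 were.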

How the results depend on the processing

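Of the 186 named genes, 157 had a called difference. All 157 kept its direction and 130 kept the call in every alternative that gave a value. These counts are a description, because the genes were picked from these same libraries. The fits of each line alone took the difference from the joint fit and so could not change it. The uncalled difference of CDH1, -0.25, reversed to 0.86 without the 2 background-rich A549 libraries, and ran from -0.4 to 0.82 when 1 library was left out, positive without A549 high-gate library B. Without a filter on low counts 2053 genes were called, 784 of them lower in H1944, with 729 alike, 932 shared risers, 92 and 46 opposite genes (H1944 up, A549 up), 481 H1944-only fallers, 84 A549-only risers, and 564 and 233 line-only genes (H1944, A549) with the other line within 2-fold. A filter at 1 CPM gave 938 lower, 1009 alike, 68 opposite with A549 up, 533 H1944-only fallers, 127 A549-only risers and 316 bounded A549-only genes. With limma-voom 2887 genes were lower, 272 and 275 opposite and 1459 H1944-only fallers. The low gate alone gave 1159 lower, 5627 differing between treated lines, 1098 alike, 322 bounded A549-only genes, 97 opposite with H1944 up and 192 A549-only risers. Without the 2 A549 libraries rich in background reads 2855 were higher, 339 opposite with H1944 up, 983 H1944-only risers and 575 A549-only fallers. With each line fitted alone A549 had 2675 calls, with 1059 and 911 shared genes (up, down), 87 and 57 opposite, and 106 and 162 A549-only (up, down). Against a 1.5-fold threshold 1727 were called, 963 higher and 764 lower. Same-letter correlations of deviations from group means ran from -0.747 to 0.182 in A549 and from -0.235 to 0.266 in H1944. Those of other letters ran from -0.455 to 0.779 and from -0.316 to 0.222. Deviations sum to 0 within groups of 2 or 3 libraries, so these ranges cannot settle whether letters pair libraries. With a replicate block by letter 2853 genes were called, with 4779 differing between naive and 5060 between treated lines and 198 A549-only risers. Leaving out 1 library at a time gave 2142 to 4142 called, 1191 to 2503 higher, 801 to 1928 lower, 5889 to 8038 H1944 and 3574 to 5937 A549 calls, 6055 to 8977 naive and 6599 to 9391 treated line differences, 764 to 1847 alike, 645 to 1293 and 239 to 609 bounded line-only genes, 1084 to 1895 shared risers, 1322 to 2023 shared fallers, 107 to 245 and 48 to 185 opposite, 443 to 986 and 424 to 902 H1944-only (up, down), and 105 to 362 and 186 to 456 A549-only. The causes of these moves were not tested. Depth limits genes with few counts in naive H1944 or naive A549, whose fold changes are bounded by counting error.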
